A study of Mus musculus with 7 samples.

Results

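The 10 genes described here encode the matrix of cartilage and Sox9, the transcription factor that drives it: Col2a1, Acan, Col9a1, Col9a2, Col9a3, Col11a1, Col11a2, Sox9, Matn3 and Hapln1. They were chosen by name as known cartilage genes, 10 of the 56854 gene identifiers that all count files share, and each was found once and was tested. RNA was sequenced from whole shoulder joints of 7 mice, 1 library per mouse, taken 2 weeks after the supraspinatus tendon of the left rotator cuff was surgically repaired. The mice were wild type (n = 3) or were labelled Tnc-/- (n = 4), a label for loss of Tenascin C, a glycoprotein of healing tendon matrix. Every mouse had the repair, so no unoperated joint serves as a baseline. Age and strain are not given in the sources used here, and how the Tnc allele was made is not given either. A whole joint holds articular and growth cartilage, bone, marrow, muscle, tendon and synovium, so in these bulk samples fewer chondrocytes and less RNA per chondrocyte cannot be told apart.

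Cartilage owes its stiffness to a network of thin collagen fibrils that traps the large proteoglycan aggrecan. The fibrils are made of type II collagen (Col2a1) built around type XI collagen, whose chains include the products of Col11a1 and Col11a2, and they are coated with type IX collagen, a trimer of the products of Col9a1, Col9a2 and Col9a3. Matrilin-3 (Matn3) links these fibrils to other matrix, and link protein (Hapln1) locks aggrecan (Acan) onto hyaluronan. Sox9 switches on most of these genes in chondrocytes and is also used by other cells, and Col11a1 is also made outside cartilage, in bone and tendon.

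The promoters of the collagen XI pair and the aggrecan pair, whose ratios are described below, are shown first. The members of each pair act in 1 structure, the type XI fibril core and the aggrecan complex. RefSeq's promoter table (build GRCm38.p6) held 7 of the 10 genes, Acan, Col9a1, Col9a2, Col11a1, Col11a2, Matn3 and Hapln1. The 250 bases before the start of transcription are printed for the collagen XI pair and the aggrecan pair, with capitals marking any match to the Sox core motif, ACAAT or, read on the other strand, ATTGT. All lie on the plus strand: Col11a1 at chr3:114030290-114030539, Col11a2 at chr17:34038888-34039137, Acan at chr7:79052976-79053225 and Hapln1 at chr13:89540386-89540635.
Col11a1: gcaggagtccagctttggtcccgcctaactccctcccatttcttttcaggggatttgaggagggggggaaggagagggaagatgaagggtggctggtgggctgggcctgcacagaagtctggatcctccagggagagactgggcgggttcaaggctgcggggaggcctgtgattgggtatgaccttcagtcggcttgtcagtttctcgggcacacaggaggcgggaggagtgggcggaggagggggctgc
Col11a2: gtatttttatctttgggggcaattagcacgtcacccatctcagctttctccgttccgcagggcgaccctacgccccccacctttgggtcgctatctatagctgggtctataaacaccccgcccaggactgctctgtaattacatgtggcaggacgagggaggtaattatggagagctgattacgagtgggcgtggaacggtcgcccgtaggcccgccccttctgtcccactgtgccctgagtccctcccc
Acan: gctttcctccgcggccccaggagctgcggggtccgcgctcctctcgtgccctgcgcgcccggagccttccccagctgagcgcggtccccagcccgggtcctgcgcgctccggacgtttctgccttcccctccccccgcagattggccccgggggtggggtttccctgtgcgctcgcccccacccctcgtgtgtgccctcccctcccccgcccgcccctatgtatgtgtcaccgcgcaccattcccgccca
Hapln1: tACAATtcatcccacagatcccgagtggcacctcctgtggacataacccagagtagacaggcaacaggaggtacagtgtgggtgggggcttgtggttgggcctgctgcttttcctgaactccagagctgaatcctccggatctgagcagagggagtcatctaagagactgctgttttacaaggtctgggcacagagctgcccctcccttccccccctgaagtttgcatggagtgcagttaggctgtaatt
The motif was in 1 of the 7 genes' windows, that of Hapln1, against 27.7% of 32851 promoters of this length, and the related motif, ACAAAG or CTTTGT, was in none, against 16.5% of all. The match lay near the far edge of the Hapln1 window. These letters are a description of the windows and say nothing of where Sox9 binds. GC content was 74.4% before Acan, 62.4% before Col11a1, 57.6% before Col11a2 and 54.4% before Hapln1.

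Facts about the libraries touch every result below. Libraries held 13.5 to 18.5 M gene reads in wild type and 19.3 to 28.2 M in Tnc-/-. Tnc stood at 292 to 437 CPM (read counts scaled to library size, with TMM factors) in wild type and at 33.4 to 55.0 CPM in Tnc-/-. Reads on Tnc were thus fewer but not absent in Tnc-/-, and the protein was not measured here. The 2 genotypes were counted against different identifier lists, and how reads were counted cannot be told apart from genotype. Wild-type libraries 2 and 3 stand apart from the rest: 2026 smell and pheromone receptor genes summed to 1564 and 1113 CPM there, against 89.8 CPM in wild-type library 1 and 33.3 to 41.5 CPM in Tnc-/-, and genes spanning over 300 kb were a median 2.84 log2 units higher there than in wild-type library 1. The members span 5.5 to 190.2 kb. For such shorter genes the same median was -0.34 (up to 10 kb), -0.20 (10 to 30 kb), 0.16 (30 to 100 kb) and 0.95 (100 to 300 kb). The part of the background of wild-type libraries 2 and 3 in the members' values was not tested.

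Expressed per kilobase of exon, which allows genes to be compared, Col2a1 had the highest mean of the members in both genotypes, 67.9 CPM per kb in wild type and 86.9 CPM per kb in Tnc-/-. In wild type it was followed by Col11a1 (32.7), Col11a2 (28.4) and Acan (24.8), all in CPM per kb, whose ranges over the 3 libraries overlapped one another and, for Col11a1 and Col11a2, that of Col2a1. Within each wild-type library, however, Col2a1 lay above each of these. Its per-kb ratio was 1.69 to 2.51 to Col11a1, 1.62 to 2.78 to Col11a2 and 2.14 to 3.6 to Acan. In Tnc-/- the order was Col11a2 (65.2), Acan (37.7) and Col11a1 (33.4). In Tnc-/- the ranges of Col11a2 (49.1 to 90.7 CPM per kb) and Col11a1 (26.3 to 48.3) no longer overlapped, while Col11a2 exceeded Col2a1 in some libraries, the per-kb ratio of Col2a1 to Col11a2 running from 0.8 to 1.65. The type IX chains, Hapln1, Sox9 and Matn3 formed a lower tier, with genotype means between 4.41 and 15.2 CPM per kb. Single libraries ran from 1.48 CPM per kb (Matn3) to 28.8 CPM per kb (Col9a2), both in Tnc-/-. That highest value passed the lowest Tnc-/- values of Acan (25.2) and Col11a1 (26.3), which came from other libraries. Other chondrocyte markers were present: Cnmd (chondromodulin) stood at 8.86 to 31.1 CPM and Snorc, a chondrocyte membrane proteoglycan, at 10.4 to 26.9 CPM over the 7 libraries. Others were low, Matn1 (matrilin-1) at 0.222 to 1.34 CPM, on 5 to 25 reads, and Epyc (epiphycan) at 0.557 to 5.32 CPM.

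**Figure D1:**
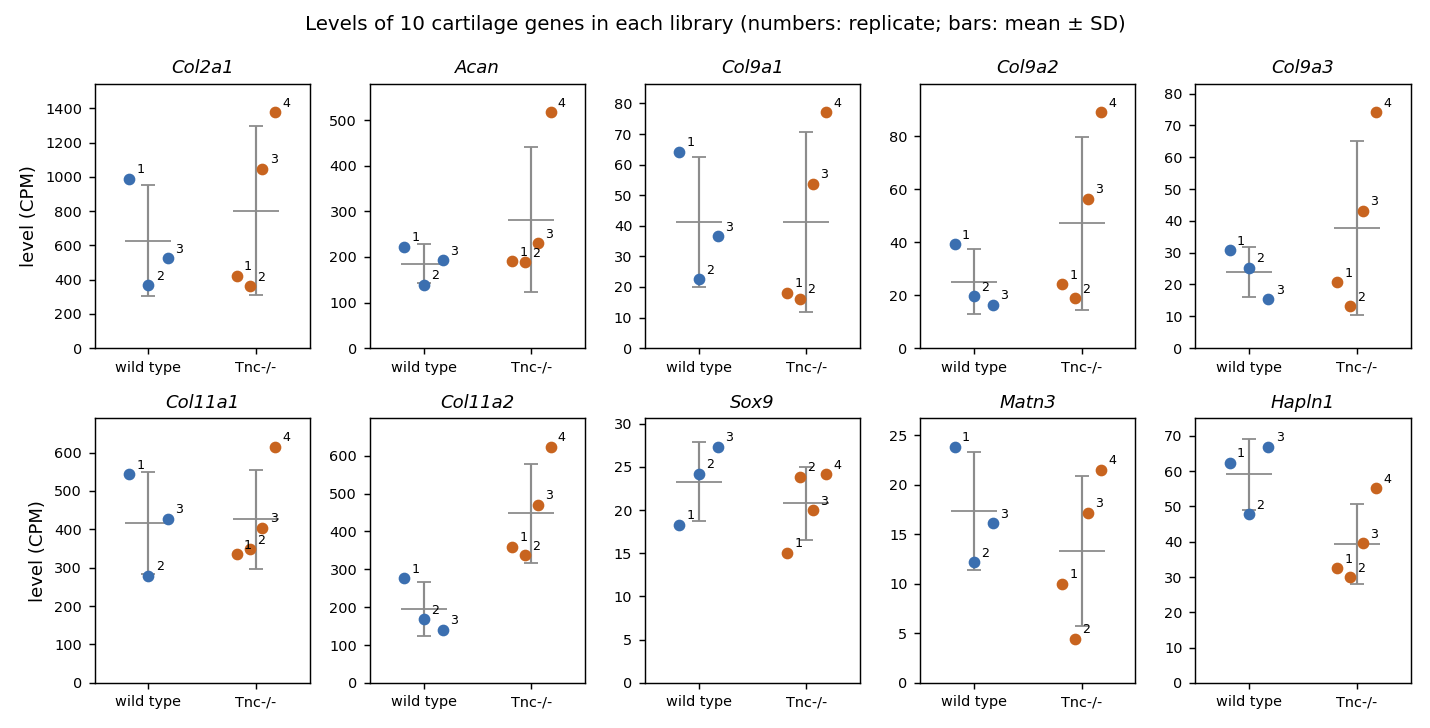
Levels of the 10 genes in CPM (vertical axes, from 0) for wild type (blue, n = 3) and Tnc-/- (orange, n = 4); each point is a library with its replicate number, and grey bars give the mean ± SD. Tnc-/- library 4 is the highest library for 7 of the 10 genes, and only for Col11a2 do all orange points lie above all blue ones.

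The comparison of genotypes asked whether cartilage matrix expression differed in repaired joints without Tenascin C. Col11a2 was the only member past the threshold, higher in Tnc-/-, and the other 9 did not pass. Across all 17791 tested genes, 29.0% were called (edgeR quasi-likelihood test, adjusted p under 0.05), 10.3% higher and 18.7% lower, so 1 of 10 members higher and 0 of 10 lower is close to the background for higher calls and below that for lower calls. Groups failed to overlap in 1 of the 10 members, in which Tnc-/- was higher, and in 35.1% of all tested genes, 17.7% with Tnc-/- higher and 17.4% with Tnc-/- lower. The members' median log2 fold change was 0.19 and that of all tested genes -0.0009. The members' median was -0.12 without Tnc-/- library 4, -0.02 without wild-type library 2 and 0.71 without wild-type library 1. It was 0.39 and 0.43 without Tnc-/- library 1 or 2, -0.13 with the background covariate, and -0.03 with library totals, where that of all genes was -0.24. At an unadjusted p under 0.05 the test gave 2 of the 10 members, Col11a2 and Hapln1, and 42.3% of all tested genes.

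Col11a2 encodes a chain of type XI collagen, which sets the diameter of cartilage fibrils. Its level was 276, 169 and 140.3 CPM across the 3 wild-type joints, in order of number, and 359, 337, 471 and 624 CPM across the 4 Tnc-/- joints. The groups did not overlap, and the lowest wild-type values were those of libraries 2 and 3. The means were 195 ± 71.6 CPM (SD, n = 3) and 448 ± 131 CPM (SD, n = 4). On the log2 scale Tnc-/- was higher by 1.2 (SE 0.30; edgeR, adjusted p = 0.0193). The call depended on single libraries: the adjusted p (edgeR) rose to 0.0712 and 0.0842 when wild-type library 2 or 3 was dropped, and to 0.0564 and 0.0512 for Tnc-/- library 3 or 4, with log2 fold changes of 1.11, 1.01, 1.17 and 0.99. It was 7.3e-05 without wild-type library 1, where the log2 fold change was 1.63, and 0.0393 and 0.0325 without Tnc-/- library 1 or 2. With wild-type library 1 as the only wild-type sample, assumed to vary like the others, the log2 fold change was 0.69 (edgeR, adjusted p = 0.201), and with a covariate for the receptor-gene background it was 0.68 (edgeR, adjusted p = 0.264).

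The genes beside Col11a2 were examined after its value was seen. Rxrb, a nuclear receptor gene that ends 1.04 kb before Col11a2 on the same strand in GENCODE M21, was at 58.0, 29.0 and 38.9 CPM in wild type and at 76.9, 74.8, 88.1 and 99.1 CPM in Tnc-/-. Its log2 fold change was 1.01 (SE 0.23; edgeR, adjusted p = 0.014). Ring1, a Polycomb gene 14.8 kb away on the other strand, had 0.75 (SE 0.20; edgeR, adjusted p = 0.0261). H2-Pb, 7.08 kb away on the far side, reached no more than 1.72 CPM in any library. The other 8 annotated genes within 20 kb did not pass the filter on counts, and 5 of them, the broadly used Slc39a7 and Hsd17b8 among these, were listed at 0 in every library. Rxrb and Ring1 were both called higher, as Col11a2 was, and like it neither was called with the covariate (edgeR, adjusted p = 0.235 and 0.324) or with wild-type library 1 alone (0.112 and 0.198); reads shared between neighbours were not tested.

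Col11a1, which encodes a partner chain, did not pass the test. It stood at 543, 279 and 427 CPM in wild type and at 335, 348, 405 and 615 CPM in Tnc-/-, with overlapping groups. Its log2 fold change was 0.03 (SE 0.28; edgeR, adjusted p = 0.946), and the sign turned under other scalings, to -0.2 with library totals. The ratio of Col11a2 to Col11a1 read counts, which no scaling of libraries can move, was 0.508, 0.605 and 0.328 in wild type. In Tnc-/- it was 1.07, 0.968, 1.16 and 1.01. Every Tnc-/- ratio lay above every wild-type ratio, wild-type library 1 included, and the geometric means differed 2.26-fold (exact permutation test, two-sided, p = 0.0571, the lowest this test can give; adjusted p = 0.198 over 45 ratios). The ratio to Col11a1 was higher in every Tnc-/- library for 5.91% of all other tested genes and lower for 9.19%. Col11a1 spans 190.2 kb and Col11a2 27.2 kb in GENCODE M21, and the ratio in wild-type library 1 lay between those of libraries 2 and 3.

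Type II collagen, the main fibril collagen, varied severalfold among mice of each genotype. Col2a1 was at 991, 368 and 524 CPM in wild type and at 424, 363, 1047 and 1379.5 CPM in Tnc-/-. High and low libraries occurred in both genotypes, with wild-type library 1 and Tnc-/- libraries 3 and 4 high. The highest Tnc-/- library held 3.80 times the lowest. The log2 fold change was 0.36 (SE 0.52; edgeR, adjusted p = 0.637). Without wild-type library 1 it was 0.94 and without Tnc-/- library 4 it was -0.04, so its direction rested on single mice.

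The type IX collagen genes, whose chains coat type II fibrils, were, like Col2a1, higher in Tnc-/- libraries 3 and 4 than in 1 and 2, and highest of the wild-type joints in library 1. Col9a1 was at 64.2, 22.6 and 36.6 CPM in wild type and at 18.1, 16.1, 53.7 and 77.2 CPM in Tnc-/-. Col9a2 was at 39.1, 19.7 and 16.4 CPM and at 24.0, 18.8, 56.4 and 89.1 CPM. Col9a3 was at 30.9, 25.3 and 15.4 CPM and at 20.8, 13.1, 43.2 and 74.2 CPM. In each of the 3 genes Tnc-/- library 4 was the highest of all 7 and the groups overlapped; Tnc-/- library 3 lay above every wild-type library for Col9a2 and Col9a3 but below wild-type library 1 for Col9a1. The highest Tnc-/- library held 4.8, 4.74 and 5.67 times the level of the lowest. Log2 fold changes were 0.0 for Col9a1 (SE 0.59), 0.91 for Col9a2 (SE 0.56) and 0.67 for Col9a3 (SE 0.55), with adjusted p (edgeR) of 0.999, 0.255 and 0.397.

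The balance among type IX chains was read from their ratios. Col9a1 to Col9a2 was 1.64, 1.15 and 2.23 in wild type and 0.755, 0.858, 0.952 and 0.867 in Tnc-/-, with no overlap (exact permutation test, two-sided, p = 0.0571, the lowest this test can give; adjusted p = 0.198 over 45 ratios). The share of all tested genes that separate likewise was not computed for ratios to Col9a1 or Col9a2, so this separation has no background. For ratios to Acan, Col11a1 and Sox9 that share was 18.3, 15.1 and 22.2%. Col9a3 to Col9a2 was 0.789, 1.28 and 0.937 in wild type and 0.697 to 0.866 in Tnc-/-, where the groups overlapped. Col9a1 to Col9a3 also overlapped, at 0.895 to 2.38 in wild type and 0.872 to 1.24 in Tnc-/-. The spans are 75.1 kb for Col9a1, 15.9 kb for Col9a2 and 24.4 kb for Col9a3. In Col9a3, 6.07% of exon bases overlap the gene Tcfl5 on the opposite strand in GENCODE M21, and without a stated strand setting its reads near that end are uncertain.

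Aggrecan and its link protein had fold changes of opposite sign, and neither passed the test. Acan was at 222, 139 and 193 CPM in wild type and at 190.0, 188, 230 and 518 CPM in Tnc-/-, or 0.60 higher on the log2 scale (SE 0.38; edgeR, adjusted p = 0.254). Tnc-/- library 4 stood far above the other 6 libraries, and without it the log2 fold change was 0.13. Hapln1 was at 62.4, 47.8 and 66.9 CPM in wild type and at 32.5, 29.97, 39.6 and 55.2 CPM in Tnc-/-. Here 3 of 4 Tnc-/- libraries lay below every wild-type library and library 4 lay among them. The log2 fold change was -0.59 (SE 0.23; edgeR, adjusted p = 0.0805), negative in all 19 alternatives and past the threshold in 5 of them, DESeq2 among these (-0.63, adjusted p = 0.0426).

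Hapln1 to Acan read counts gave 0.281, 0.344 and 0.346 in wild type and 0.171, 0.16, 0.172 and 0.107 in Tnc-/-. The groups did not overlap, and the geometric mean in Tnc-/- was 0.465 times that of wild type (exact permutation test, two-sided, p = 0.0571, the lowest this test can give; adjusted p = 0.198 over 45 ratios). The ratio to Acan was lower in every Tnc-/- library for 17.6% of all other tested genes and higher for 0.736%. Acan spans 61.6 kb and Hapln1 71.9 kb.

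Among all 45 ratios between members, 13 (28.9%) did not overlap between genotypes. Ratios of all other tested genes to Acan, to Col11a1 and to Sox9 did not overlap in 18.3, 15.1 and 22.2%; for Sox9 8.38% were higher in Tnc-/- and 13.8% lower. Matn3 was part of 5 of the 13, Col11a2 of 4 and Sox9 of 0. Shares over all tested genes were not computed for ratios to Matn3 or to Col11a2, so their counts have no background. The widest differed 3.55-fold, Col11a2 to Hapln1, at 2.1 to 4.42 in wild type and 11.1 to 11.9 in Tnc-/-, followed by Col11a2 to Matn3, 3.43-fold, at 8.72 to 13.9 and 27.4 to 75.7. Ratios share genes and are not independent, and this two-sided test, which doubles the smaller tail, could not give a p below 0.0571 for any of them.

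**Figure D2:**
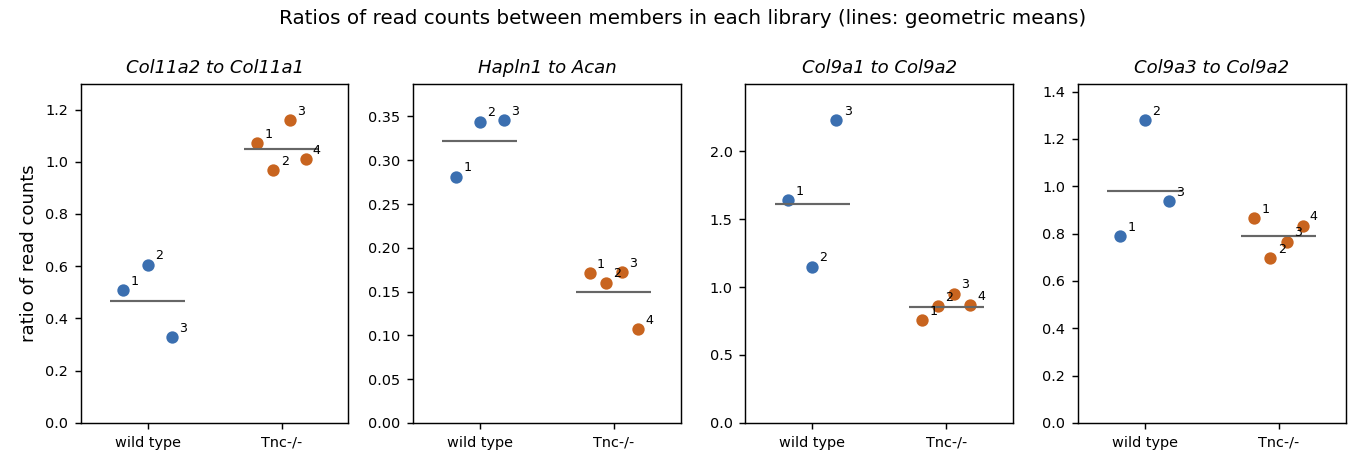
Ratios of read counts between members (vertical axes, from 0) in wild type (blue, n = 3) and Tnc-/- (orange, n = 4), each point a library with its replicate number and each line a geometric mean. Col11a2 to Col11a1 was 0.328 to 0.605 in wild type and 0.968 to 1.16 in Tnc-/-; Hapln1 to Acan was 0.281 to 0.346 and 0.107 to 0.172.

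Matn3, the fibril adaptor, had one of the low levels among the members. Its level was 23.8, 12.2 and 16.1 CPM in wild type and 9.99, 4.46, 17.2 and 21.5 CPM in Tnc-/-. Tnc-/- library 2, with 80 reads, held the lowest value, and the groups overlapped. The log2 fold change was -0.39 (SE 0.48; edgeR, adjusted p = 0.578).

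Sox9 had the narrowest range over all 7 libraries of the 10 members. It was at 18.3, 24.2 and 27.3 CPM in wild type and at 15.1, 23.8, 19.99 and 24.2 CPM in Tnc-/-, on 341 to 462 reads per library. The highest library held 1.81 times the lowest, against 2.2 to 5.67 times for the other 9 members and a median of 1.97 times over the 13114 tested genes averaging 5 CPM or more. Within Tnc-/- its highest library held 1.60 times the lowest, against a median of 1.32 times over those genes, and within wild type its range of 1.49 times was wider than the 1.40 times of Hapln1. Its log2 fold change was -0.16 (SE 0.22; edgeR, adjusted p = 0.61), and it turned to 0.18 with the background covariate. Col2a1 to Sox9 read counts ran from 15.2 to 54.1 in wild type and from 15.2 to 57.1 in Tnc-/-, so the matrix gene varied severalfold against its regulator inside each genotype.

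The members were also compared by the order of mice within each genotype. In 9 of 10 members, all but Sox9, Tnc-/- libraries 3 and 4 both lay above libraries 1 and 2, and in 8 of 10 wild-type library 1 lay above libraries 2 and 3. Over all tested genes these orders held in 16.4% and 42.0%. Over the 13114 tested genes averaging 5 CPM or more, as all members do, they held in 16.9% and 49.1%. Likeness to Col2a1 was measured as the root mean square difference between profiles of log2(CPM + 1) over the 7 libraries, each centred on its mean, for 13201 other genes averaging 5 CPM or more. Col9a1 ranked 1 (0.236 log2 units), Col9a2 2, Col9a3 5, Acan 8, Col11a1 17 and Matn3 21. Col11a2 ranked 1473, Hapln1 2029 and Sox9 7469. The nearest genes that are not members were Cnmd (rank 3, 0.38), Kif7 (0.391), a regulator of hedgehog signalling, Mex3a (0.431), an RNA-binding protein, Ccn5 (0.431), a secreted matricellular protein, and C130021I20Rik (0.437). Cnmd, a cartilage glycoprotein, was at 20.4, 13.5 and 20.3 CPM in wild type and at 12.5, 8.86, 19.99 and 31.1 CPM in Tnc-/-. Sox9 lay nearest to Slc2a12 (0.062 log2 units), Harbi1 (0.089), Il20rb (0.094), Maml2 (0.095) and Noa1 (0.098). No member ranked above 4902 for Sox9.

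**Figure D3:**
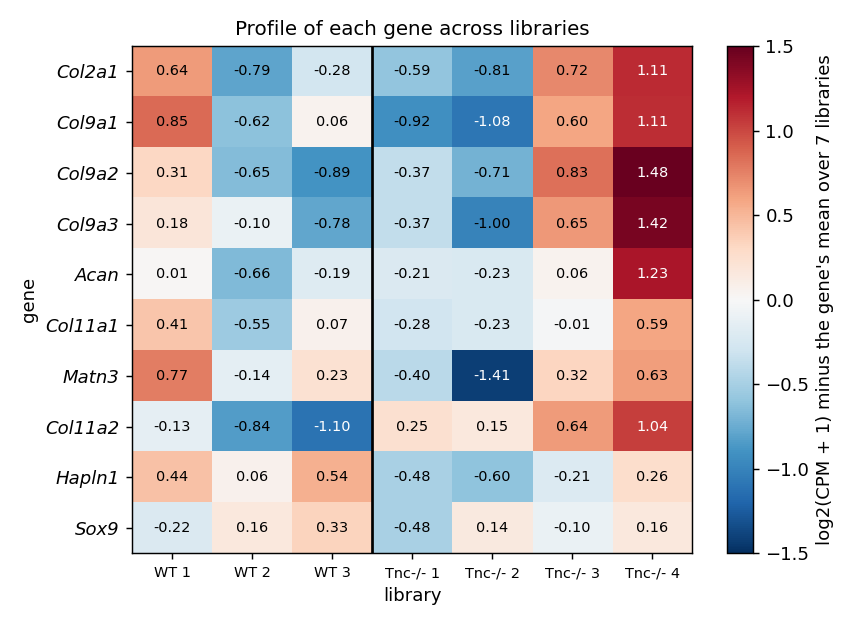
Deviation of log2(CPM + 1) from each gene's mean over the 7 libraries, by gene (rows) and library (columns; a black line separates wild type from Tnc-/-), with red above and blue below the mean. Col2a1 and the type IX genes share a pattern, high in wild-type library 1 and Tnc-/- libraries 3 and 4, whereas Sox9 stays within -0.48 and 0.33.

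Marker levels of other tissues moved with some libraries. Bone markers (8 of 8 found, none at 0) summed to 8962 to 15087 CPM in wild type and 10581 to 19843 CPM in Tnc-/-, highest in Tnc-/- library 4 and wild-type library 1. Tnc-/- library 3, also high in Col2a1, had a bone sum of 12781 CPM, near the 12495 CPM of library 2. Most of each sum was Col1a1 (8024 to 18574 CPM), which other connective tissues also make. Tendon markers (7 of 7 found, Scx at 0 in every library) summed to 2856 to 3653 CPM and 2809.8 to 4659.5 CPM, also highest in Tnc-/- library 4. Marrow markers (8 of 8 found, Alas2 at 0 in every library) summed to 908 to 1952 CPM and 2336 to 4254 CPM, which did not overlap. Skeletal muscle markers (7 of 7, none at 0) did not overlap either, at 21480.0 to 28265 CPM and 29692 to 44415 CPM. Adipocyte markers (6 of 6, none at 0) and synovial markers (7 of 7, none at 0) overlapped. The part of these tissues in the members' values was not tested. Among genes called in these lists, Mkx (-0.92, adjusted p = 0.0379) and Phex (-0.81, 0.0161) were lower in Tnc-/- (log2 fold change, edgeR), while Bglap (0.55, 0.0374), Myh4 (1.18, 0.00856), Adipoq (0.63, 0.0491), Ank1 (1.76, 0.0067), Camp (1.41, 0.00946), Klf1 (1.43, 0.0151), Ltf (1.28, 0.0228) and Slc4a1 (1.49, 0.0287) were higher; of all tested genes 10.3% were called higher and 18.7% lower. With the covariate Ank1 alone of these 10 was still called (edgeR, adjusted p = 0.0163), and the others had adjusted p from 0.105 to 0.38. The synovial list had no call, and its most abundant genes Prg4 and Pdgfra had -0.02 and -0.14.

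The rest of the cartilage programme was read from lists chosen with earlier results of these data known. Of 21 other matrix and secreted proteins, 18 were tested, 1 rose and 1 fell, both below the shares of all tested genes (10.3% higher, 18.7% lower). The median log2 fold change was -0.10, and -0.34 with the covariate and -0.35 with wild-type library 1 alone. Col27a1, a fibrillar collagen of cartilage, was at 97.5, 76.2 and 77.6 CPM in wild type and at 137, 129, 155 and 188 CPM in Tnc-/- (0.86, SE 0.17; edgeR, adjusted p = 0.00954). Frzb, a secreted Wnt antagonist of articular cartilage, was at 28.6, 26.2 and 28.8 CPM and at 11.5, 12.1, 13.4 and 22.9 CPM (-0.90, SE 0.26; edgeR, adjusted p = 0.0313). The groups did not overlap for either gene, but neither was called with the covariate (edgeR, adjusted p = 0.131 and 0.123) or with wild-type library 1 alone (0.104 and 0.106). Chad, Col10a1 and Mia were listed at 0 in all 7 libraries, as were Scx, Htra1 and Alas2 of other lists. Alas2 was at 0 where Slc4a1, another red-cell gene, reached 1017 CPM, and the broadly used Slc39a7 was also at 0, so a listed 0 is not read here as absence of expression.

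Of 12 chondrogenic transcription factors and Sox9 partners, 2 rose and 5 fell, with a median of -0.57, against 10.3% of all tested genes higher and 18.7% lower. Zfp219, a partner of Sox9 (0.96; edgeR, adjusted p = 0.0128), and Runx3, a Runt factor of chondrocyte maturation (1.03; 0.0147), rose in Tnc-/-. Foxa3 (-5.91; 0.0067), Trps1 (-0.55; 0.0104), Gli3 (-1.21; 0.031), Arid5b (-0.67; 0.044) and Sox5 (-1.38; 0.0448) fell. Foxa3, Gli3 and Arid5b were high in wild-type libraries 2 and 3: Foxa3 was at 2.04, 42.8 and 29.9 CPM in wild type, Gli3 at 17.7, 59.5 and 42.1 CPM and Arid5b at 52.9, 98.95 and 88.7 CPM. Sox5 was high there as well, at 23.4, 113 and 89.9 CPM in wild type and 23.4 to 33.1 CPM in Tnc-/-. Its log2 fold change was 0.45 with the background covariate and 0.30 with wild-type library 1 alone. Trps1, a GATA-type repressor, was at 82.1, 91.0 and 92.7 CPM in wild type and at 54.6 to 64.2 CPM in Tnc-/-, apart in every library. With wild-type library 1 alone, 0 of the 12 were called (edgeR), against 4.45% of all genes in that fit, and the median was 0.07. With the background covariate 1 was called, Foxa3 (-2.04; edgeR, adjusted p = 0.0175), against 6.15% of all genes.

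Of 19 genes of sulphated glycosaminoglycan synthesis, which build the chains of aggrecan, 1 rose and 3 fell, with a median of -0.15; both counts are below the shares of all tested genes (10.3% higher, 18.7% lower). The median was 0.04 with the covariate and 0.01 with wild-type library 1 alone. Papss2, which makes the sulphate donor, was at 51.5, 53.6 and 57.1 CPM in wild type and at 33.4, 33.6, 34.2 and 38.7 CPM in Tnc-/- (-0.63, SE 0.12; edgeR, adjusted p = 0.0089), below in every library. Cant1, a nucleotidase of proteoglycan synthesis, rose (0.57; edgeR, adjusted p = 0.028). Neither was called with the covariate (edgeR, adjusted p = 0.0808 and 0.38) or with wild-type library 1 alone (0.067 and 0.26). Chsy3 (-1.85; edgeR, 0.0318) and Csgalnact1 (-1.09; 0.0296) were lower, but in wild-type library 1 they stood at 15.6 and 24.8 CPM, inside their Tnc-/- ranges. Of 11 signalling receptors and ligands, 0 rose and 2 fell, Acvr1 (-1.17; edgeR, adjusted p = 0.01) and Bmpr1b (-1.93; 0.0151), close to the 18.7% lower of all tested genes. The list's median of 0.29 was 0.05 with the covariate and 0.1 with wild-type library 1 alone. Bmpr1b was at 9.55 CPM in wild-type library 1, inside its Tnc-/- range, and at 47.2 and 33.4 CPM in libraries 2 and 3. With wild-type library 1 alone the log2 fold changes were -0.50 for Acvr1 and -0.28 for Bmpr1b, and neither was called. Of 6 cartilage-degrading enzymes, 5 were tested and none was called, against 29.0% of all tested genes. Mmp13, the main collagenase of cartilage, had -0.31 (edgeR, adjusted p = 0.297) and Mmp3 -0.53 (0.0943). With the background covariate 1 of the 5 was called, Mmp3, at -0.98 (edgeR, adjusted p = 0.0207), against 6.15% of all genes. With wild-type library 1 alone the log2 fold change of Mmp3 was -0.93. Mmp3 and the marrow gene Ank1 were the only genes of the 11 lists called in that fit.

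Fold changes of the members shifted with the treatment of wild-type libraries 2 and 3. With wild-type library 1 alone, the log2 fold change was -0.31 for Col2a1, -0.65 for Col9a1, -0.36 for Col11a1 and 0.17 for Sox9, each of the opposite sign to the fit with all libraries, where Col9a1 and Col11a1 were within 0.03 of 0. Acan (0.33), Col9a2 (0.26), Col9a3 (0.29) and Col11a2 (0.69) stayed above 0, and Matn3 (-0.85) and Hapln1 (-0.67) below it. None of the 10 was past the threshold there (edgeR, adjusted p from 0.153 to 0.913), and 825 of 18530 genes were called in that fit.

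**Figure D4:**
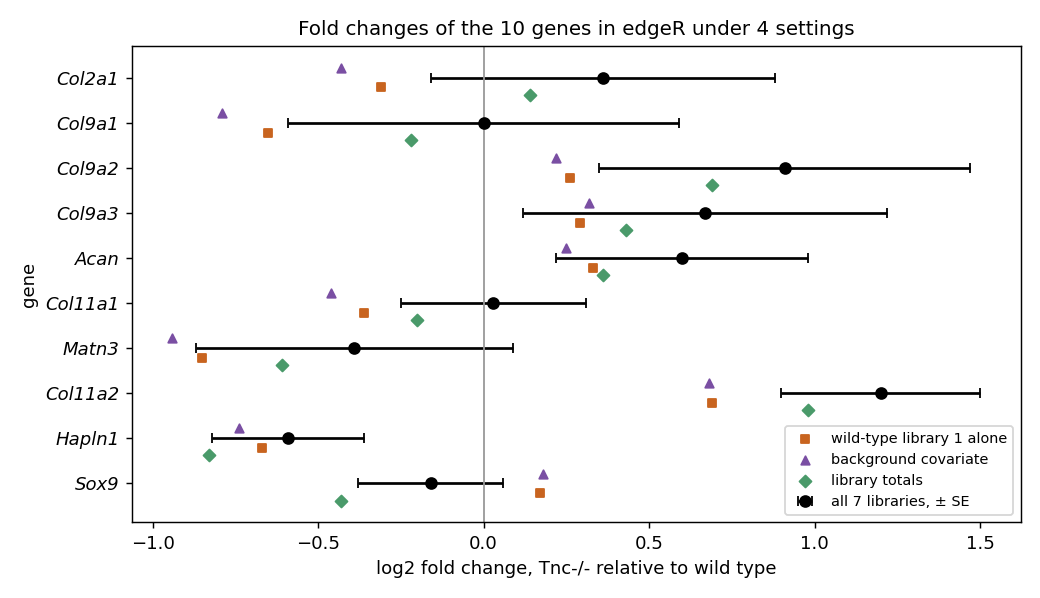
Log2 fold changes of the 10 genes, Tnc-/- relative to wild type (horizontal axis), from edgeR with all 7 libraries (black, ± SE), with wild-type library 1 as the lone wild-type sample (squares), with the background covariate (triangles) and with library totals as scaling (diamonds). Col11a2, Acan, Col9a2 and Col9a3 stay above 0 and Hapln1 and Matn3 below 0 in all 4 settings, while Col2a1, Col9a1, Col11a1 and Sox9 cross 0.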

How the data were processed

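Each library has 1 deposited file of unnormalized counts, reads per gene. Per the submitters' processing notes, FastQC 0.11.9, HISAT2 2.2.1, HTSeq 2.0.2 and DESeq2 1.38.3 were used with build GRCm39; the annotation and strand setting are not given in the sources used here. Rows that name no gene, present in the Tnc-/- files alone (30.1 to 32.7% of listed reads), were left out. The 56854 identifiers common to all files were analysed; 0 columns stayed unmapped. Replicate numbers come from the sample titles, and p-values measure only the spread between these samples.

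Genotypes were compared with edgeR 4.0.16 in R 4.3.3 (filterByExpr, TMM, robust quasi-likelihood F test, genotype as the only term), with Benjamini-Hochberg adjustment over 17791 genes at 0.05. CPM are counts divided by TMM-scaled totals; SE follows from the log2 fold change and its F statistic. Exon lengths and spans came from GENCODE M21 (GRCm38; 98.2% of tested genes). The step was tested on simulated data. Ratios were compared with exact permutation tests on log2 ratios. The alternatives used DESeq2 1.42.0, limma 3.58.1, other scalings, filters, a background covariate, a replicate block and left-out libraries. Members and lists were chosen with earlier results of these data known. Named genes are all members, up to 6 called genes per list by smallest p (or the 2 most abundant where none was called), and the 5 genes nearest to Col2a1 and to Sox9. Sox5, called beyond the first 6 of its list, was named as well.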

Additional observations from a re-analysis of the deposited data

Results flagged for a closer look

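Of 26 quantities examined over the 4 Tnc-/- joints, 3 had 1 joint well away from its group, each time Tnc-/- library 4; about 1 in 20 does so by chance. Acan was at 518 CPM there against 188 to 230 CPM in the other 3, a gap of 0.874 of the whole range. The summed level of the chondrogenic transcription factors and Sox9 partners was 611 CPM against 549 to 552 CPM (gap 0.939), and that of the cartilage-degrading enzymes 655 CPM against 480.3 to 509 CPM (gap 0.833).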

How the results depend on the processing

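Over the 19 alternatives, Acan, Col9a2, Col11a2 and Hapln1 kept the sign of their log2 fold change; Col11a2 was past the threshold in 10 (0.98 to 1.63) and ran from 0.68 to 1.63 over all 19. All genes called numbered 973 with limma voom, 22 with Bonferroni adjustment, 1095 with the background covariate, 825 with wild-type libraries 2 and 3 both left out, and 2229 to 14113 when 1 library was left out, 14113 being without wild-type library 1. The share of lower calls, 64.5% in the main fit, was 82.7% with library totals, 27.3% with limma voom, 18.2% with Bonferroni adjustment and 43.2% without wild-type libraries 2 and 3. Members called numbered 2 with DESeq2, library totals and at least 10 counts in every library, which called 35.1, 30.9 and 24.3% of all genes, and 0 with limma voom, Bonferroni adjustment, the background covariate, and wild-type libraries 2 and 3 both left out; leaving out 1 library gave 0 to 1. The replicate number as a block, which drops Tnc-/- library 4, called 1713 genes and 1 member, Hapln1 (-0.79, adjusted p = 0.0323), in place of Col11a2 (adjusted p = 0.0668). The numbers share no source in the labels: same-numbered libraries correlated at -0.001, 0.054 and -0.043 in their deviations.

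Signs that turned, in log2 fold change, none of them past the threshold: Col9a1 and Col11a1 were -0.04 and -0.01 with DESeq2 and with DESeq2 size factors, -0.22 and -0.20 with library totals, -0.07 and -0.04 with upper-quartile scaling and with at least 10 counts, -0.79 and -0.46 with the covariate, -0.59 and -0.16 with the block, and -0.65 and -0.36 without wild-type libraries 2 and 3; Col9a1 was -0.24 with limma voom. Col2a1 was -0.43 with the covariate, -0.08 with the block and -0.31 without wild-type libraries 2 and 3, Col9a3 -0.04 with the block, and Sox9 0.18 and 0.17 with the covariate and without wild-type libraries 2 and 3. Leaving out 1 library gave -0.04 to 0.94 for Col2a1, -0.49 to 0.57 for Col9a1, -0.20 to 0.36 for Col11a1 and -0.72 to 0.0 for Matn3. The cause was not tested.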
